A study of Mus musculus with 4 samples.

Results

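The mouse mitochondrial genome carries 37 genes, and 9 of them are read from the opposite direction to the rest. These are mt-Nd6, which encodes a membrane subunit of respiratory complex I, and the tRNA genes mt-Tq, mt-Ta, mt-Tn, mt-Tc, mt-Ty, mt-Ts1, mt-Te and mt-Tp. They are called light-strand genes here. They were chosen by name and by their strand, which is minus in the annotation while that of mt-Co1 is plus, and no measured value entered the choice. All 9 were found among the 16472 genes of the table, and the other 28 mitochondrially encoded genes (12 mRNAs, 14 tRNAs and 2 rRNAs) are called heavy-strand genes.

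The samples were 4 RNA sequencing libraries from skeletal muscle of wild-type (WT) mice. Mitochondria were isolated by fractionation, and 2 of the libraries were made from them. The methods of the study, written for heart, also treat isolated mitochondria with digitonin and RNase A before RNA isolation. The other 2 libraries are labelled by treatment as tissue minus mitochondria, while their titles name total and the study describes this comparison as one with total muscle lysate. They are called remaining tissue after the treatment label, although they may hold whole muscle. Neither age nor strain of the mice is given in the labels, and nothing says that the libraries come from separate animals, so that p-values may measure technical spread alone. For bulk RNA, fewer cells of a type cannot be told apart from less RNA per cell.

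Both strands of the circular mitochondrial genome are transcribed into long precursors that begin in the control region. The first gene that the light-strand precursor reaches is mt-Tp, and most of its length is antisense to the heavy-strand genes. RNase P and ELAC2 cut the precursors at the 5′ and the 3′ ends of the tRNAs, which releases the tRNAs and the RNAs between them. The antisense remainder is normally removed by a degradosome of the helicase SUV3 and the nuclease PNPase. In muscle, which is rich in mitochondria, these RNAs serve the synthesis of the membrane subunits of oxidative phosphorylation.

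All positions are on chromosome M of GRCm38, minus strand, and the 37 genes had the same coordinates in GENCODE M21. The gene mt-Tp (chrM:15356-15422, proline tRNA) lies nearest to the control region, with no annotated gene on its 5′ side. The gene mt-Te (chrM:14071-14139, glutamate tRNA) follows at 1283 bases from the 5′ end of mt-Tp and directly adjoins mt-Nd6 (chrM:13552-14070). Next come mt-Ts1 (chrM:6870-6938, serine tRNA), then the cluster of mt-Ty (chrM:5260-5326, tyrosine), mt-Tc (chrM:5192-5257, cysteine), mt-Tn (chrM:5089-5159, asparagine) and mt-Ta (chrM:5018-5086, alanine), and last mt-Tq (chrM:3772-3842, glutamine), 11580 bases from the 5′ end of mt-Tp. Identifiers run from ENSMUSG00000064343 (mt-Tq) to ENSMUSG00000064372 (mt-Tp), with ENSMUSG00000064368 for mt-Nd6.

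The tRNA genes on which the comparisons below turn are shown 5′ to 3′ as DNA letters from GENCODE M21 transcripts, with the anticodon in capitals. A stem of 5 paired bases was found beside the anticodon in each of them. The first stood out upward in isolated mitochondria, the next 3 fell relative to heavy-strand mRNAs and the last gave a value near 0 against them.
mt-Tp: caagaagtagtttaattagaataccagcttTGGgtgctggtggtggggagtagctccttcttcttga
mt-Te: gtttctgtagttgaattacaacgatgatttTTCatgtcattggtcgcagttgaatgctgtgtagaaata
mt-Ts1: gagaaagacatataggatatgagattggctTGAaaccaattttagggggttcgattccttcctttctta
mt-Ta: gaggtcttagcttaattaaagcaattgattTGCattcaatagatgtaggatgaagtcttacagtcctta
mt-Tq: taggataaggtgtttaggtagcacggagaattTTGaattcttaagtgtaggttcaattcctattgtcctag

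The coding sequence of mt-Nd6 has 519 bases, which make 173 codons with the stop. Its last 60 bases (chrM:13552-13611) are shown because the 14 in capitals, stop codon included, overlap the end of mt-Nd5 on the other strand.
mt-Nd6 end: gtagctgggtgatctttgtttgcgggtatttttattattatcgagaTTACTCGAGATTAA

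The RNAs of this strand share a base composition. The mt-Nd6 sequence held 28.1% G and 5.97% C, with 43.7% T. Expressed as (G - C) / (G + C), its skew was 65.0%. All 8 light-strand tRNAs also held more G than C, with skews of 4.35% (mt-Ty) to 38.5% (mt-Tq). Heavy-strand mRNAs ranged from -63.1% to -19.2%, rRNAs from -9.94% to -8.57% and heavy-strand tRNAs from -23.8% to 20%, so that only the tRNAs of the 2 strands overlapped.

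**Figure D1:**
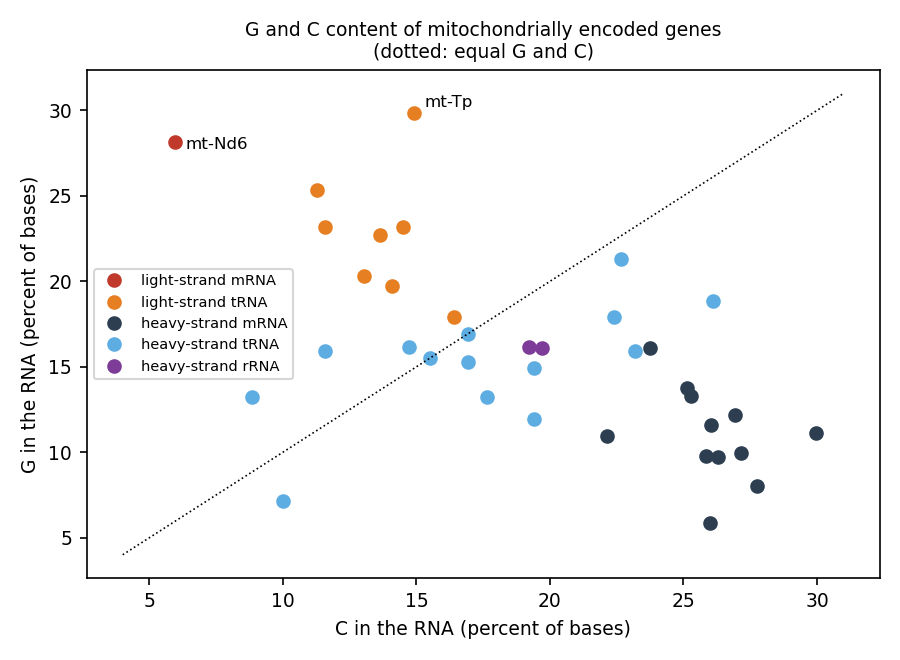
G content (vertical axis) against C content (horizontal axis) of each of the 37 mitochondrially encoded genes, in percent of the bases of its RNA, one point per gene. The 9 light-strand genes lie above the dotted line of equal G and C, with mt-Nd6 farthest to the left (28.1% G, 5.97% C), and the 12 heavy-strand mRNAs lie below it.

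Reads assigned to genes numbered 42750301 and 35305296 in isolated mitochondria replicates 1 and 2, as recovered from the values. For remaining tissue they were estimated as 15702483 and 15300351. Reads not assigned to a gene are left out, so these numbers are not the sequencing depth. Mitochondrially encoded genes took 95.3% and 94.1% of counts in isolated mitochondria and 22.3% and 20.5% in remaining tissue. On the 9 light-strand genes lay 108196 and 143871 of the recovered reads and 11017 and 9602 of the estimated ones. Values are normalized counts, that is reads per gene divided by a size factor of the library and rounded. In remaining tissue 1 normalized count stood for about 7.05 reads, so rounding alone could move the lowest value of mt-Tc by up to 10% and those of mt-Ty and mt-Ts1 by up to 5.56%. Over all genes tested, 7.32% were called higher and 9.3% lower in isolated mitochondria (adjusted p under 0.05, limma). Of 6 muscle markers, 5 were called lower there (Myh4 by -3.34 on the log2 scale), and Acta1, Ckm and Myh4 had 15561 to 139440 normalized counts in remaining tissue. Of 11 markers of other cells, 6 could be tested, of which 3 were higher (Col1a1, Col3a1, Lyz2) and 1 was lower (Cdh5). Their summed level was 1230 and 1415 in remaining tissue and 5935 and 12879 in isolated mitochondria. The part of such cells in the results below was not tested.

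The first comparison asked whether light-strand RNAs are enriched in isolated mitochondria. On the deposited scale, all 9 genes were more than 100-fold higher there than in remaining tissue. In remaining tissue mt-Nd6 had 400 and 403 normalized counts, against 110802 and 93138 in isolated mitochondria. The groups lay far apart, and the means differed 254-fold (log2 fold change 7.98, SE 0.18, adjusted p = 0.00241, limma with Benjamini-Hochberg adjustment, n = 2 per group). Its neighbour mt-Te had 106 and 74 against 11736 and 15602 normalized counts, which is 152-fold. The gene nearest to the control region, mt-Tp, had 505 and 398 against 676831 and 461230 normalized counts. Its means differed 1260.3-fold (log2 fold change 10.28, SE 0.28, adjusted p = 0.00269, limma). This was the largest change among the 37 mitochondrially encoded genes.

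The tRNA cluster between mt-Nd2 and mt-Co1 rose as well. The most abundant of its 4 genes, mt-Tn, had 248 and 228 normalized counts in remaining tissue and 76770 and 72431 in isolated mitochondria (313-fold). The adjacent mt-Ta had 106 and 94 against 20577 and 19498 (200.4-fold). Levels of mt-Tc were 6 and 5 against 2724 and 1993 (429-fold), and levels of mt-Ty were 12 and 9 against 4407 and 3501 (377-fold). Both were thus close to the floor of the table in remaining tissue and well measured in isolated mitochondria. At the far end, mt-Tq had 171 and 140 against 73141 and 59283 normalized counts (426-fold). The lone mt-Ts1 had 9 and 11 against 2054 and 1184 (162-fold), and its isolated mitochondria differed 1.73-fold from each other, the widest gap among the 9 genes.

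In the fit across the 6916 genes with a mean of at least 20 normalized counts, 9 of 9 light-strand genes were higher in isolated mitochondria, with log2 fold changes of 7.15 (mt-Ts1) to 10.28 (mt-Tp) and a median of 8.29. Over all genes tested 7.32% were called higher and 9.3% lower, and the median was -0.44. The groups did not overlap for any of the 9, as for 69.1% of all genes tested. The genes mt-Tc, mt-Ty and mt-Ts1 passed the filter only through isolated mitochondria, and 6 genes passed it in both groups. All 28 heavy-strand genes were higher too, with medians of 8.80 for mRNAs (8.26 to 9.21), 7.52 for tRNAs (6.09 to 8.65) and 9.13 for rRNAs. This direction holds on the deposited scale, which is set by nuclear genes. Scaled to the total of the 37 mitochondrially encoded genes, 8 of the 9 turned to a value below 0 and mt-Tp alone stayed higher (1.24, adjusted p = 0.0169, limma). Over all genes, that scaling gave 4 higher and 6802 lower calls and the total of all genes gave 38 and 6694, against 506 and 643 as deposited.

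**Figure D2:**
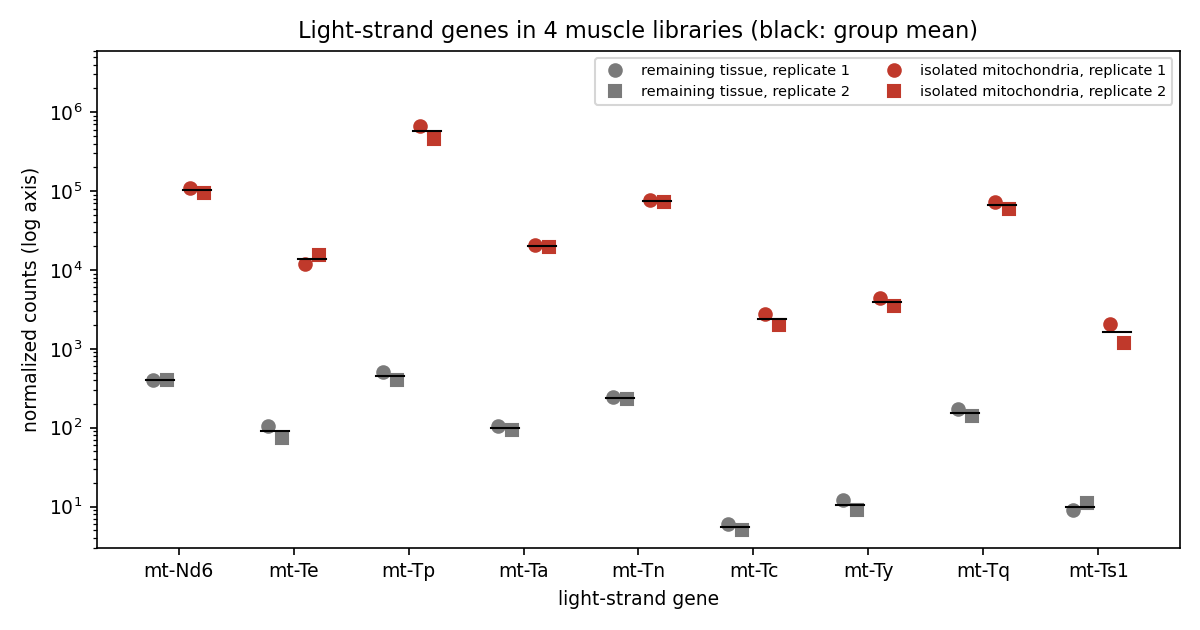
Normalized counts (vertical log axis) of the 9 light-strand genes (horizontal axis) in the 4 libraries, with one point per library and a black bar at the mean of the 2 libraries of a group. For every gene the isolated mitochondria lie above the remaining tissue, from 1184 to 676831 against 5 to 505 normalized counts, and mt-Tp shows the widest gap.

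Because all mitochondrial RNAs rose together, the second comparison set each library to the same total of the 12 heavy-strand mRNAs and asked which light-strand RNAs rose more or less than these. One gene rose more. Per 1000 heavy-strand mRNA counts, mt-Tp had 5.42 and 4.67 counts in remaining tissue and 13.5 and 16.1 in isolated mitochondria. Both isolated mitochondria lay above both remaining tissues, by 2.93-fold in the mean. The log2 fold change was 1.55 (SE 0.23, 95% interval 0.97 to 2.13, adjusted p = 0.000902, limma, n = 2 per group). It passed the threshold in each of 16 alternative fits, with values of 1.24 to 2.56.

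On this strand 3 tRNAs rose less than the heavy-strand mRNAs. Per 1000 of their counts, mt-Te had 1.14 and 0.869 in remaining tissue and 0.234 and 0.545 in isolated mitochondria (log2 fold change -1.48, SE 0.54, adjusted p = 0.0391, limma). The groups did not overlap, but the isolated mitochondria differed 2.33-fold from each other. Levels of mt-Ts1 were 0.0967 and 0.129 against 0.0409 and 0.0414 (-1.43, SE 0.38, adjusted p = 0.0118, limma). For mt-Ta they were 1.14 and 1.10 against 0.410 and 0.682 (-1.08, SE 0.42, adjusted p = 0.0474, limma). Among the 16 alternative fits mt-Ts1 was called lower in 13, mt-Te in 11 and mt-Ta in 8. The 3 calls were lost when 1 library of remaining tissue was left out. Without replicate 1 of that group the adjusted p was 0.285 for mt-Te, 0.220 for mt-Ts1 and 0.342 for mt-Ta, and without replicate 2 it was 0.157, 0.358 and 0.322. The log2 fold changes then were -1.28, -1.64 and -1.06 without replicate 1 and -1.67, -1.22 and -1.11 without replicate 2, with SEs of 1.11 to 1.33 in these fits, where the lone sample is assumed to vary like the other group. With 1 library of isolated mitochondria left out, mt-Te ranged from -2.09 to -0.87 and mt-Ta from -1.45 to -0.72.

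For mt-Nd6, the only mRNA of the strand, 4.30 and 4.73 counts per 1000 heavy-strand mRNA counts in remaining tissue stood against 2.21 and 3.26 in isolated mitochondria. The groups did not overlap, yet the difference missed the threshold (log2 fold change -0.75, SE 0.32, 95% interval -1.56 to 0.06, adjusted p = 0.0633, limma). It passed without isolated mitochondria replicate 1 (-0.47, adjusted p = 0.0131) and without replicate 2 (-1.03, adjusted p = 0.000542), when the lone sample is assumed to vary like the other group. The overlapping mt-Nd5 on the other strand had a value of -0.26 (adjusted p = 0.0296, limma), and mt-Cytb, on the far side of mt-Te, one of -0.03 (adjusted p = 0.693, limma).

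The remaining 4 tRNAs missed the threshold, with intervals that span 0. Levels of mt-Tn were 2.66 and 2.68 per 1000 heavy-strand mRNA counts against 1.53 and 2.53 (log2 fold change -0.44, 95% interval -1.37 to 0.49). Levels of mt-Tq were 1.84 and 1.64 against 1.46 and 2.07, and the groups overlapped (95% interval -0.88 to 0.88). The same held for mt-Tc with 0.0644 and 0.0587 against 0.0542 and 0.0697 (95% interval -0.93 to 0.93). For mt-Ty the levels were 0.129 and 0.106 against 0.0878 and 0.122 (-0.17, 95% interval -1.21 to 0.87), also with overlap.

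Of the 9 light-strand genes, 1 was thus called higher and 3 lower relative to heavy-strand mRNAs, with a median log2 fold change of -0.44, and 6 did not overlap between groups. Over all genes tested 0.0868% were called higher, 98.1% lower and 98.8% did not overlap, since nuclear genes fall once libraries are set to mitochondrial RNA. With so many calls the adjustment hardly raises a p-value. Of the 12 heavy-strand mRNAs 2 were called lower (median 0.07, range -0.47 to 0.48), and of the 14 heavy-strand tRNAs 9 (median -1.20, range -2.63 to -0.08). Of the 2 rRNAs, mt-Rnr2 was called higher (0.37, adjusted p = 0.0112, limma) and mt-Rnr1 missed the threshold (0.41, adjusted p = 0.0608, limma). The 8 light-strand tRNAs had a median of -0.31. Set to the heavy-strand tRNAs instead, mt-Nd6, mt-Tn, mt-Tc, mt-Ty and mt-Tq turned to values above 0 (0.26, 0.57, 1.00, 0.84 and 1.01). Of these, mt-Tc (adjusted p = 0.0300) and mt-Tq (adjusted p = 0.0153, limma) passed the threshold, while mt-Tp stood at 2.56. The call of mt-Tc rests on 6 and 5 normalized counts in remaining tissue. This gene passed the filter only through isolated mitochondria, where it is higher, so its call carries little weight. That scaling gave 31 higher and 6739 lower calls over all genes tested.

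**Figure D3:**
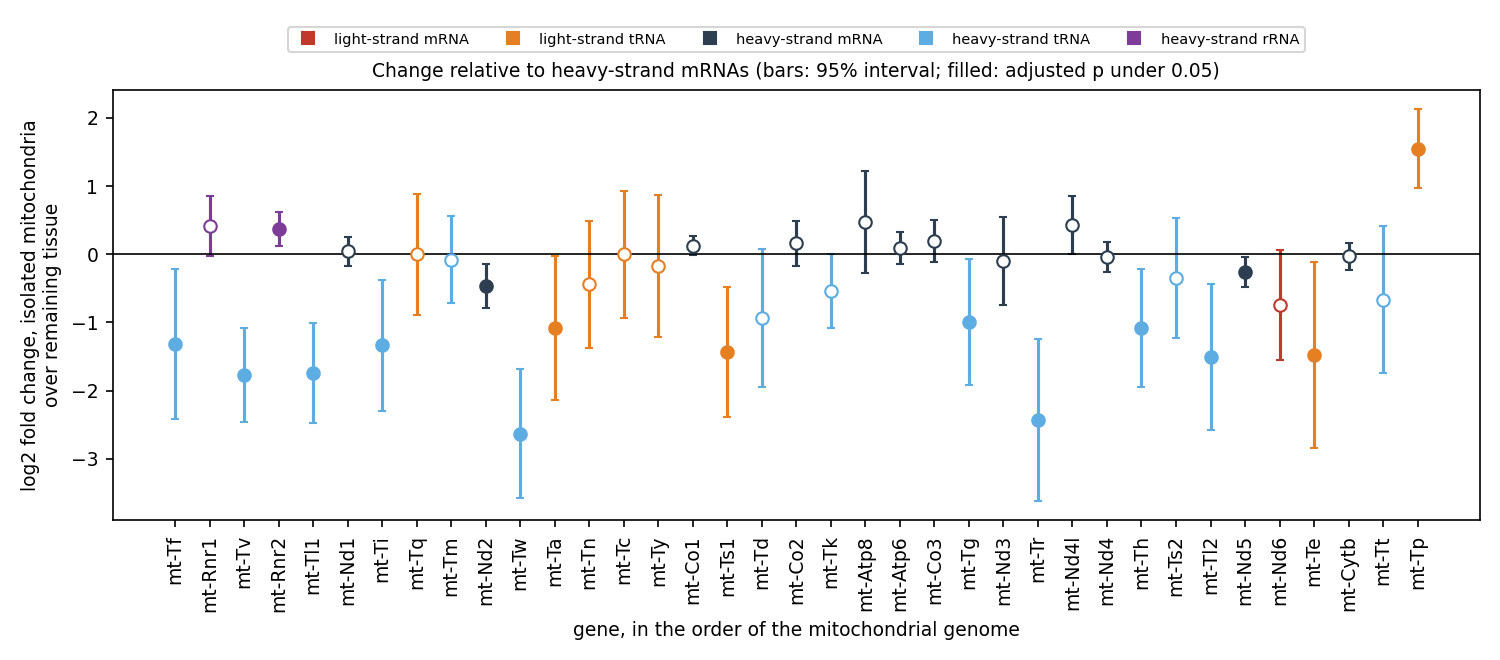
Log2 fold change of each of the 37 mitochondrially encoded genes, isolated mitochondria over remaining tissue (vertical axis), after libraries were set to equal totals of the 12 heavy-strand mRNAs, in genome order (horizontal axis). Bars are 95% intervals of the limma fit (n = 2 per group), filled points have an adjusted p under 0.05, and mt-Tp at the right end (1.55) is the highest value while the other light-strand genes lie between -1.48 and 0.

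The order of these values did not follow the distance from mt-Tp. The value was -1.48 for mt-Te at 1283 bases from the 5′ end of mt-Tp and -0.75 for mt-Nd6 at 1352 bases. It was -1.43 for mt-Ts1 at 8484 bases, -0.17 for mt-Ty at 10096 bases and -1.08 for mt-Ta at 10336 bases. The most distant gene, mt-Tq, had a value near 0, and differences between these genes were not tested.

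Within a library, shares need no scaling between libraries. Light-strand genes took 0.314% of mitochondrially encoded counts in the first library of remaining tissue (0.309 to 0.320, 95% Wilson interval) and 0.306% in the second (0.300 to 0.312). For isolated mitochondria the share was 0.266% (0.264 to 0.267) and 0.433% (0.431 to 0.435). These intervals hold counting error within a library alone and leave out the spread between libraries. The reads carry no molecular identifiers, so copies of the same molecule count as separate reads. The intervals of remaining tissue come from estimated reads. The means were 0.310% ± 0.00629 and 0.349% ± 0.118 (SD, n = 2 each), and the groups overlapped. With 2 libraries against 2, no permutation p can fall below 0.333, so none is given for shares. The rRNAs, which held 79.5% to 85.8% of mitochondrially encoded counts, weigh on this share. Without them the share (SD, n = 2 each) was 1.52% ± 0.0456 in remaining tissue and 2.13% ± 0.379 in isolated mitochondria, and the groups did not overlap. On this measure only mt-Tp was higher, with 0.469% ± 0.0473 against 1.41% ± 0.164. The share of mt-Nd6 was lower in isolated mitochondria (0.420% ± 0.0305 against 0.259% ± 0.0680). That of the other 7 light-strand tRNAs together was lower too (0.634% ± 0.0288 against 0.469% ± 0.147).

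Among tRNAs the share of the light strand did not overlap between groups. Light-strand tRNAs made up 16.6% and 16.5% of the counts on the 22 tRNAs in remaining tissue and 40.1% and 39.5% in isolated mitochondria. The gene mt-Tp alone went from 7.21% and 6.85% to 31.2% and 28.7%. The other 7 light-strand tRNAs together held 9.40% and 9.66% in remaining tissue and 8.83% and 10.8% in isolated mitochondria, so that the groups overlapped. The total of the 22 tRNAs includes mt-Tp, so the other tRNAs together lose share as mt-Tp gains it. Heavy-strand tRNAs went from 83.4% and 83.5% to 59.9% and 60.5%. An even share of the other 7 thus does not mean an even level against heavy-strand tRNAs. Among the 13 mRNAs, mt-Nd6 took 0.428% and 0.471% in remaining tissue and 0.220% and 0.325% in isolated mitochondria, without overlap. The Wilson half-width was at most 0.359 percentage points for these tRNA shares and at most 0.0173 for mt-Nd6.

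**Figure D4:**
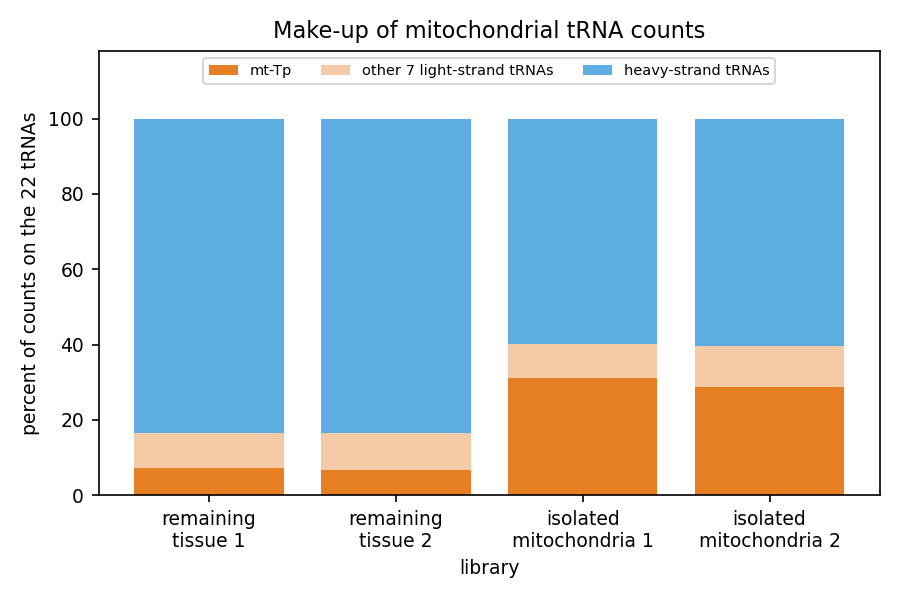
Percent of normalized counts on the 22 mitochondrial tRNAs (vertical axis) that fell on mt-Tp, on the other 7 light-strand tRNAs and on the heavy-strand tRNAs, stacked for each of the 4 libraries (horizontal axis). The mt-Tp segment is 7.21% and 6.85% in remaining tissue and 31.2% and 28.7% in isolated mitochondria. That of the other 7 lies between 8.83% and 10.8% of a total that includes mt-Tp.

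Levels of different genes were compared per length, as counts per kb of gene and per 1000 heavy-strand mRNA counts. The tRNAs are about as short as the reads of the study, so their counts may not scale with length as those of mRNAs do. The size of this effect was not tested. In remaining tissue the order was mt-Tp (75.4 ± 7.92), mt-Tn (37.6 ± 0.136), mt-Tq (24.5 ± 1.92), mt-Ta (16.2 ± 0.355), mt-Te (14.5 ± 2.76), mt-Nd6 (8.70 ± 0.594), mt-Ty (1.75 ± 0.245), mt-Ts1 (1.64 ± 0.333) and mt-Tc (0.933 ± 0.0614) (SD, n = 2 each). Of these neighbours only mt-Ta and mt-Te, and mt-Ty and mt-Ts1, overlapped. The level thus spanned 82.9-fold and 78.4-fold within the 2 libraries. In isolated mitochondria mt-Tp stood at 220.9 ± 27.9, followed by mt-Tn at 28.6 ± 9.99 and mt-Tq at 24.9 ± 6.13 (SD, n = 2 each), and the last pair overlapped. Next were mt-Ta (7.91 ± 2.79), mt-Te (5.65 ± 3.19) and mt-Nd6 (5.26 ± 1.43), which overlapped from one to the next. At the low end came mt-Ty (1.57 ± 0.365), mt-Tc (0.939 ± 0.165) and mt-Ts1 (0.596 ± 0.00495), which did not. The span was 339.4-fold and 401.2-fold.

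Among the 22 tRNAs, mt-Tp ranked 4 and 5 per length in the libraries of remaining tissue and 1 in both of isolated mitochondria. The lowest tRNA per length was mt-Tc in both libraries of remaining tissue and mt-Ts1 in both of isolated mitochondria. The other members moved by at most 3 ranks between any 2 libraries. The median heavy-strand tRNA had 25.2 and 20.3 counts per kb per 1000 heavy-strand mRNA counts in remaining tissue and 8.40 and 14.02 in isolated mitochondria. The median light-strand tRNA had 16.5 and 14.3, and 4.66 and 8.89. The median heavy-strand mRNA had 67.1 and 68.5, and 61.0 and 61.9.

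Light-strand genes were then set beside their neighbours on the genome, as ratios of levels per length within a library. The ratio of mt-Tp to mt-Tt, the threonine tRNA that it directly adjoins on the other strand, was 3.66 and 4.23 in remaining tissue and 21.5 and 15.6 in isolated mitochondria. The heavy-strand mt-Tt had a log2 fold change against heavy-strand mRNAs of -0.67 (adjusted p = 0.176, limma). The ratio of mt-Tq to mt-Ti, which overlaps it by 3 bases, was 3.69 and 3.16 against 7.43 and 10.1. That of mt-Ta to mt-Tw was 0.927 and 0.808 against 1.84 and 3.49, with mt-Tw at -2.63 (adjusted p = 0.000782, limma), the lowest value among the 37 genes. Other ratios to heavy-strand neighbours overlapped or were lower in isolated mitochondria. The ratio of mt-Tq to mt-Tm on its other side was 0.403 and 0.377 against 0.356 and 0.474, and that of mt-Ty to mt-Co1 was 0.0110 and 0.00945 against 0.00715 and 0.00966, both with overlap. The ratio of mt-Ts1 was 0.326 and 0.507 against 0.320 and 0.257 to mt-Td, and 0.00800 and 0.0112 against 0.00324 and 0.00317 to mt-Co1. The ratio of mt-Te to mt-Cytb was 0.146 and 0.106 against 0.0306 and 0.0678.

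On the same strand, the ratio of mt-Te to the adjoining mt-Nd6 was 1.99 and 1.38 in remaining tissue and 0.797 and 1.26 in isolated mitochondria. The ratio of mt-Tn to mt-Ta, 2 bases apart, was 2.27 and 2.36 against 3.63 and 3.61. Across the gap of 32 bases between mt-Tn and mt-Tc, the level of mt-Tc was 0.0260 and 0.0236 of that of mt-Tn in remaining tissue and 0.0382 and 0.0296 in isolated mitochondria. The level of mt-Nd6 was 0.106 and 0.117 of that of mt-Nd5 in remaining tissue and 0.0696 and 0.0909 in isolated mitochondria.

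Several steps bear on these values. Libraries came from a stranded kit, but the strand setting of the counting is not given in the sources used here, so reads of light-strand genes and of heavy-strand antisense RNA cannot be told apart. Reads over several genes were left out by the authors, and a read that spans a tRNA and its neighbour may be lost in this way. The time of fragmentation was adapted for mitochondrial RNA according to the methods of the study, which cannot be told apart from the groups. The same holds for digitonin and RNase A, which the methods name for isolated mitochondria of heart and not for the other fraction. Whether muscle mitochondria were treated alike is not stated. The part of these steps in the change of short RNAs was not tested.

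Stretches shared with nuclear genes matter because reads with several matches were left out too. In 7 of the 8 light-strand tRNAs no run of 30 bases was shared with a nuclear transcript. Only annotated GENCODE M21 transcripts were searched. Copies elsewhere in the nuclear genome, which can also cost reads, were not looked for. In mt-Ty 13.2% of such runs occurred in Cep295, and in mt-Nd6 8.37% were shared with Gm11408, a processed pseudogene on chromosome 4. Gm11408 had 0 and 0 normalized counts in remaining tissue and 461 and 293 in isolated mitochondria, where they stand for 51 and 58 reads. Of the 12 heavy-strand mRNAs, 7 shared more than 50% of their runs, and scaling to the 5 that shared less than 20%, an alternative added after seeing the data, left mt-Tp at 1.68 (adjusted p = 0.000792, limma) and mt-Ts1 called lower, while mt-Te (-1.35, adjusted p = 0.0575) and mt-Ta (-0.96, adjusted p = 0.0709) missed the threshold.

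The genes whose pattern over the 4 libraries was most like that of mt-Nd6, by root mean square distance of centred log2 values, were mt-Tn (0.171), Gm4076 (0.188) and mt-Td (0.190). Gm4076 is a processed pseudogene on chromosome 13 that shares runs of 30 bases with mt-Nd5. The list of alike genes is a description over 4 libraries and carries no test.

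Nuclear genes that make, cut, load and degrade light-strand RNAs were read from the same fit on the deposited scale. Of 29 listed genes, 26 were in the table and 12 passed the filter. None passed the threshold (limma), 3 had an unadjusted p under 0.05, and edgeR on recovered or estimated reads called 2 lower (Lrpprc and Polrmt). Over all genes tested, limma called 7.32% higher and 9.3% lower and edgeR 13.6% higher and 17.6% lower, so that 2 of 12 by edgeR is near its background. Among the enzymes that load the 8 tRNAs, only Aars2, the alanine enzyme, was tested (1 of 10), with 4 and 4 reads in isolated mitochondria. Among genes of tRNA maturation, 3 of 5 were tested. Elac2, which cuts the 3′ end of tRNAs, had a log2 fold change of -1.41 (adjusted p = 0.392, limma), Trnt1, which adds the CCA end, 0.92 (adjusted p = 0.264, limma), and Hsd17b10, a subunit of mitochondrial RNase P, 0.69 (adjusted p = 0.309, limma).

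For transcription of the mitochondrial genome 4 of 5 genes were tested. Tfb2m, an initiation factor, had -1.21 (adjusted p = 0.220, limma), Tfam, which packages the genome and starts transcription, -1.35 (adjusted p = 0.191, limma) and the polymerase Polrmt -2.10 (adjusted p = 0.122, limma). For decay and stability 4 of 6 were tested. Lrpprc, which protects mitochondrial mRNAs, had -1.13 (adjusted p = 0.0600, limma), Grsf1, which binds G-rich light-strand RNA, -0.66 (adjusted p = 0.115, limma), and the exonuclease Rexo2 -0.32 (adjusted p = 0.506, limma). The median count of reads over genes of these lists was 0 to 5 in a library of isolated mitochondria, which limits what could be detected at this depth.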

How the data were processed

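The deposited values were made by the authors from reads trimmed with Trimmomatic 0.39, aligned to GRCm38 (mm10) with STAR 2.7.10a and counted per gene with featureCounts 2.0.2, without reads that match several genes or places. Versions are those of the submitters' processing notes, and the methods of the study name other versions of STAR, featureCounts and DESeq2. The deposited signal is gene counts that the authors divided by a DESeq2 1.30.1 size factor and rounded, called normalized counts here. Low values in isolated mitochondria were whole multiples of 9.0488 (replicate 1, 99.952% of 10508 values) and 5.0591 (replicate 2, 99.966% of 11660), which recovered whole reads. For remaining tissue, 7.05 reads per normalized count were estimated over 8993 genes above 0 in all libraries, with both libraries taken as equal.

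Groups and replicate numbers came from the labels. Genes with a mean of at least 20 (6916 of 16472) were tested in R 4.3.3 by limma 3.58.1 on log2(value + 1), with a trended eBayes and no covariate. Tests were two-sided, p-values were adjusted over the tested genes by Benjamini-Hochberg, and the threshold was 0.05. Log2 fold changes are on this scale, which understates changes of low genes. The fit was run as deposited and after scaling to the total of the 12 heavy-strand mRNAs. Alternatives covered the pseudocount, filter, trend, scaling, each library left out, the replicate number as a block, and edgeR 4.0.16 (quasi-likelihood) on the reads. The script was tested on simulated data. Shares carry 95% Wilson intervals.

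Named were all 9 light-strand genes, heavy-strand genes that adjoin or overlap them or stand at an extreme, at most 3 genes with the highest mean from each pathway list, and the 3 genes most like mt-Nd6. Earlier results of these data were known when the members and lists were chosen. The members were still set by name and strand, without a measured value. Gene sequences came from GENCODE M21 transcripts. The control region, where no transcript lies, was not analysed here.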

Additional observations from a re-analysis of the deposited data

How the results depend on the processing

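The enrichment of mt-Tp kept its direction and its side of the threshold in each of 15 alternatives on the deposited scale and of 16 against heavy-strand mRNAs. On the deposited scale, the number of light-strand genes called higher was 5 of 9 with libraries scaled to the total of all genes. Among these were mt-Tc and mt-Ty, which passed the filter only through isolated mitochondria. Scaled to the 37 mitochondrially encoded genes, 1 was called higher and 2 lower, and the values below 0 were -1.06 (mt-Nd6), -1.79 (mt-Te), -1.40 (mt-Ta), -0.75 (mt-Tn), -0.31 (mt-Tc), -0.48 (mt-Ty), -0.31 (mt-Tq) and -1.74 (mt-Ts1). These scalings include the mitochondrial RNA that is compared. Against heavy-strand mRNAs, the number called lower (3) was 1 without a filter on low values, 1 with the added scaling to 5 heavy-strand mRNAs, and 0 to 5 with 1 library left out (0 without either remaining tissue, 5 without isolated mitochondria replicate 2). The cause was not tested. Where the count was 0, it was also 0 at an unadjusted p under 0.05, and edgeR gave 3 with all libraries at the main scaling. Over all genes, the fit against heavy-strand mRNAs without a filter called 12 higher and 15938 lower of 16472. With the added scaling it called 14 higher and 6777 lower of 6916. Scaled to the 14 heavy-strand tRNAs, 3 members were called higher and 0 lower (limma), against 31 higher and 6739 lower over the 6916 genes. The 3 include mt-Tc, which passed the filter only through isolated mitochondria. Values that turned above 0 were 0.26 (mt-Nd6), 0.57 (mt-Tn), 1.00 (mt-Tc), 0.84 (mt-Ty) and 1.01 (mt-Tq). Values near 0 changed sign elsewhere: mt-Tc was 0.018 with edgeR and 0.13 with the added scaling, and mt-Tq 0.020 and 0.13. Without remaining tissue replicate 1, mt-Tc was 0.07 and mt-Tq 0.08, and without isolated mitochondria replicate 1, mt-Tc was 0.18, mt-Ty 0.068 and mt-Tq 0.25 (range down to -0.18, -0.41 and -0.25 without replicate 2). As a share of mitochondrially encoded counts, light-strand genes moved from 0.349% to 2.13% in isolated mitochondria and from 0.310% to 1.52% in remaining tissue without the rRNAs. Other denominators gave 39.8% and 16.6% (light-strand tRNAs among tRNAs) and 0.449% (mt-Nd6 among mRNAs, remaining tissue). The replicate numbers share only a number (correlation of replicate differences between groups 0.141 over 6916 genes). With the replicate block, 9 of 9 stayed higher on the deposited scale, and against heavy-strand mRNAs mt-Ta lost its call (adjusted p = 0.0544, limma), which left 2 lower. No other member's call changed under the block. Over all genes the block gave 630 higher and 1144 lower calls on the deposited scale against 506 and 643, and edgeR gave 939 and 1216. Without remaining tissue replicate 1, 296 and 176 were called, without replicate 2, 313 and 188, and without isolated mitochondria replicates 1 and 2, 1724 and 2774, and 1643 and 3198.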
